A study of Mus musculus with 40 samples.

Results

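Solute carrier genes encode membrane transporters, and this account follows the 182 that were expressed in mpkCCD cells, which derive from mouse kidney collecting duct and were immortalized. A gene was included when its symbol had the form of a solute carrier name (Slc, a family number, a letter and a member number), when it was neither a pseudogene nor Slc5a3 or Slc6a6, and when its mean over the 11 control clone libraries was at least 2 TPM. TPM, a measure of transcript abundance, has a common total in all libraries and takes transcript length into account. The table holds 55414 genes, 376 of them solute carrier symbols at any level, and 12061 genes of any kind reached the same 2 TPM. The genes were thus chosen by their TPM in the control clones, and levels are given as a description. Those control values also enter each comparison, and a gene that was silent in controls and came on in a knockout could not be included. Just inside the threshold lay Slc23a3 at 2.14, Slc17a9 at 2.54 and Slc46a3 at 2.99 TPM, and just outside it lay Slc16a11 at 1.77, Slc4a5 at 1.75 and Slc52a3 at 1.73 TPM. Of the 182 genes, 4 have names derived from a carrier but encode no carrier themselves: Slc9a3r1 and Slc9a3r2 (scaffold proteins), Slc4a1ap (an adaptor) and Slc7a6os (a gene on the opposite strand).

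All cells were polarised on permeable supports, kept in medium with dexamethasone and exposed to 0.1 nM dDAVP, a vasopressin analogue, for 72 hours, so no comparison here is of vasopressin itself. Unmodified control clones gave 11 libraries, the ATF1-KO label 5, the ATF1/CREB1-KO label 3 and the ATF1/CREB1/CREM-KO label 3. The CREB family of transcription factors comprises ATF1, CREB1 and CREM, and the study asked about their part in regulation of Aqp2, the vasopressin-sensitive water channel gene. The labels do not say whether the libraries of one label came from separate clones, so p-values measure the spread between these libraries, which may be technical. The p-values treat each library as independent, which was not tested. ATF1/CREB1/CREM-KO replicates 2 and 3 shared shifts of chromosomes 14 and 18, given below, that replicate 1 did not show. The library numbers form 3 consecutive stretches, here called runs: control clones 1 to 5 with ATF1-KO, control clones 6 to 8 with ATF1/CREB1-KO, and control clones 9 to 11 with ATF1/CREB1/CREM-KO. No label names a run as a batch. Each label was compared with the control clones of its own run.

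Solute carriers move ions, metals, amino acids, sugars, vitamins and metabolites across the plasma membrane and across the membranes of mitochondria, the Golgi apparatus, endosomes and lysosomes. In the collecting duct, plasma membrane carriers supply the cell and set its volume and pH, while mitochondrial carriers (the SLC25 family) feed and drain the organelle that powers sodium transport. CREB-family factors bind the cAMP response element (CRE), a short DNA element with the letters TGACGTCA, or its shorter core TGACG. Vasopressin raises cAMP in principal cells.

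The promoters of the genes that the results turn on were read for these letters on both strands, where the core can also read CGTCA. RefSeq windows on build GRCm38.p6, from 250 bases before to 50 bases after the transcript start, were matched by symbol for 140 of the 182 genes. The full element stood in the windows of 4 of these 140 genes (2.86%) and in 2.03% of the 27025 genes of the promoter table, and the core on either strand stood in 34.29% and 23.05%. Cores inside a full element are counted in the core shares. The promoter table was not filtered by expression as the 182 genes were, and no share over expressed genes was counted. The 4 genes with the full element were Slc18a2, Slc25a25, Slc25a36 and Slc38a6, and none of them was called changed under any label. In that order their log2 changes under ATF1/CREB1/CREM-KO were -0.15, -0.59, -0.49 and -0.56 (limma, adjusted p = 0.697, 0.0739, 0.0858 and 0.349). Under ATF1/CREB1-KO they were -0.22, -0.07, -0.23 and -0.22 (adjusted p = 0.506, 0.879, 0.461 and 0.758). Of the 182 genes 82 and 84 were lower by value under these labels. Among genes called lower in either multiple knockout the core stood in 2 of 7 windows, among those called higher in 5 of 15, and among genes called in neither in 41 of 118. The windows of Slc25a16, the gene that fell most of all 182 under ATF1/CREB1/CREM-KO, and Slc39a7, called higher, are shown because each was called in 1 direction under both multiple knockout labels and holds the core, whose letters are in capitals. The Slc25a16 window lies at chr10:62920383-62920682 on the plus strand, with the core starting 83 and 30 bases before the start. The Slc39a7 window lies at chr17:34031641-34031940 on the minus strand, with the core starting 7 bases before the start.
Slc25a16: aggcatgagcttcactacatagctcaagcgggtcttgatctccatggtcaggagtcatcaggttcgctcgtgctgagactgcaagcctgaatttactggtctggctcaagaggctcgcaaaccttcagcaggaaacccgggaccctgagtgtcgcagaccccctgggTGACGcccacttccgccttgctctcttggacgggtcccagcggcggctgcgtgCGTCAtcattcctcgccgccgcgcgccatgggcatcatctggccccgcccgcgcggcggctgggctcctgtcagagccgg
Slc39a7: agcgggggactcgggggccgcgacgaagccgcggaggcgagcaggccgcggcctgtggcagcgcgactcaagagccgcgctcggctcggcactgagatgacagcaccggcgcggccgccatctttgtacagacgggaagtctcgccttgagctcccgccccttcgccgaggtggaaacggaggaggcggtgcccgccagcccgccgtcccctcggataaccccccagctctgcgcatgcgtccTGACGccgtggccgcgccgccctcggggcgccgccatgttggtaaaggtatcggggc
These matches are letters in a window and say nothing of binding. The windows of Slc22a29, Slc25a30, Slc19a2, Slc25a45 and Slc46a1, also called under both labels, do not hold the core letters.

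The solute carrier genes were expressed over a wide range, from 2.14 to 498 TPM with a median of 26.1 TPM, as means of the 11 control clones. Of these genes 23 reached 100 TPM, and the 8 highest held 28.9% of their summed TPM. Slc25a5, the ADP/ATP carrier of the inner mitochondrial membrane, was highest, with a lowest library of 194, a median of 592 and a highest of 704 TPM. Slc25a3, the mitochondrial phosphate carrier, followed at 213, 451 and 576 TPM (lowest, median and highest), and Slc3a2, the heavy subunit shared by several amino acid exchangers, at 114, 351 and 462 TPM. The other 5 of the 8 were Slc25a4, another ADP/ATP carrier (mean 286 TPM), Slc25a39, linked to mitochondrial glutathione import (272 TPM), Slc38a2, a sodium-coupled neutral amino acid carrier (257 TPM), Slc44a2, a choline-like carrier (236 TPM), and Slc25a11, the oxoglutarate carrier (208 TPM). The SDs of these means (82.1 to 197 TPM) exceed the gaps between neighbours in this order. By solute class, taken from the family number alone, 40 mitochondrial carriers held 33.2% of the summed TPM, 24 amino acid carriers 14.6%, 23 metal carriers 13.3%, 25 nucleotide sugar and sugar phosphate carriers 12.8% and 27 carriers of other organic solutes 10.1%.

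The 6 libraries of the second run stood apart. The 182 genes made up 1.04 to 1.16% of the TPM in every library of the other runs, but 0.308 to 0.316% in control clones 6 to 8. They made up 0.31%, 0.306% and 0.528% in the libraries labelled ATF1/CREB1-KO, so the third of these stood apart within its own group. Ribosomal protein genes (90 genes) moved the other way, at 14.5 to 15.4% of TPM in control clones 6 to 8 and 13.3%, 12.8% and 7.29% in the ATF1/CREB1-KO libraries. Of the 182 genes 164 (90.1%) were lower in all of control clones 6 to 8 than in all 8 other control clones, against 67.5% of all 13295 genes tested, and 2 (Slc39a1 and Slc50a1) were higher, against 11.5%. What set the second run apart was not tested, and comparisons with ATF1/CREB1-KO were kept inside it.

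**Figure D1:**
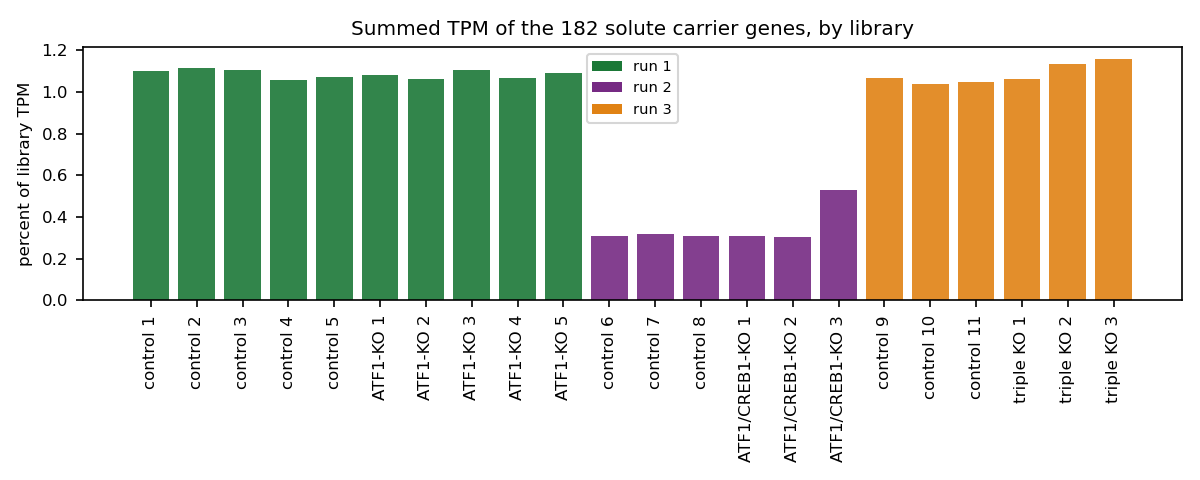
Summed TPM of the 182 solute carrier genes as a percentage of each library's TPM, 1 bar per library, coloured by run. Control clones 6 to 8 lie at 0.308 to 0.316%, the third ATF1/CREB1-KO library at 0.528%, and every library of the other runs at 1.04 to 1.16%.

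The labelled cell type was checked by its markers. Aqp2 stood at 379 to 2279 TPM and Avpr2, the vasopressin receptor gene, at 37.04 to 227 TPM in the control clones, and Aqp2 fell to 15.1, 16.1 and 15.3 TPM under ATF1/CREB1/CREM-KO (log2 change -6.34 ± 0.40 SE, limma, adjusted p = 2.68e-09, 3 against 3). Of 11 principal cell markers 8 reached the mean needed for testing and 1 was never above 1 TPM. Aqp3 stood at only 0.63 to 7.18 TPM and Aqp4 at 0 to 3.47 TPM in the control clones. Intercalated cell markers summed to 28.7 to 166 TPM in the control clones, and 5 of these 10 genes were never above 1 TPM. Of 10 proximal tubule markers 9, and of 6 markers of the loop and distal tubule 4, were never above 1 TPM. In the libraries labelled ATF1-KO, Atf1 stood at 19.1, 25.01, 17.5, 33.5 and 37.8 TPM against 37.8 to 48.95 TPM (adjusted p = 0.454). Creb1 fell under ATF1/CREB1-KO (log2 change -0.58, adjusted p = 0.00775) and ATF1/CREB1/CREM-KO (-0.97, adjusted p = 1.65e-05), whereas Crem stood at 26.02, 31.6 and 33.8 TPM in the libraries labelled as lacking CREM against 24.9, 20.0 and 23.1 TPM. Atf1 stood at 23.7, 40.8 and 32.7 TPM in these libraries against 39.8 to 40.5 TPM (adjusted p = 0.452), and at 18.3, 23.7 and 15.1 against 23.3 to 26.2 TPM under ATF1/CREB1-KO (adjusted p = 0.394). Crem was called higher under ATF1/CREB1-KO (log2 change 1.12, adjusted p = 0.0261), with its highest value, 46.5 TPM, in the third library. Atf1 RNA did not pass the test as lower under any label, and Crem RNA goes against the label that names it, so the directions below belong to libraries labelled ATF1/CREB1/CREM-KO; gene-level TPM does not show whether an edited transcript still makes protein.

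Under ATF1-KO no solute carrier gene was called changed. A gene was called where the adjusted p of limma (on log2(TPM + 1), adjusted by Benjamini-Hochberg across 13295 genes) was under 0.05, and 0.0% of all genes tested were called here. At an unadjusted p under 0.05 stood 16 of the 182 (8.79%), beside 5.13% of all genes, and 170 of the 182 changes lay within 0.5 of 0 on the log2 scale. The median change was -0.02, beside -0.0022 for all genes tested.

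Slc25a48, a mitochondrial carrier linked to choline, was the gene nearest the threshold. It stood at 91.7, 53.4, 60.3, 33.9 and 63.0 TPM in control clones 1 to 5 and at 26.2, 23.2, 26.6, 26.04 and 19.8 TPM in the libraries labelled ATF1-KO. All 5 of the latter were below all of the former, with a log2 change of -1.22 ± 0.20 SE (limma, adjusted p = 0.0607). The gene was called without control clone 4, the lowest of its group, without the third ATF1/CREB1-KO library, which enters only through the shared spread, and with array weights. It showed no such fall under the other labels, with 56.8, 55.6 and 57.3 against 65.3, 53.8 and 37.2 TPM for ATF1/CREB1-KO and 23.7, 17.3 and 27.3 against 34.8, 44.4 and 33.2 TPM for ATF1/CREB1/CREM-KO. The ATF1/CREB1/CREM-KO libraries were all above their control clones, and that change differed from the one under ATF1-KO by 1.92 ± 0.33 SE (limma, adjusted p = 0.00149). Control clones of the 3 runs themselves differed in this gene, the third run lying lowest. The groups also did not overlap for Slc12a4 and Slc39a10, both higher under ATF1-KO, so 3 of 182 genes (1.65%) separated the libraries beside 1.29% of all genes.

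Under ATF1/CREB1/CREM-KO 21 solute carrier genes were called, 14 higher and 7 lower (11.5%), beside 8.02% of all genes tested and 8.22% of those with at least 2 TPM. Higher calls made up 7.69% of the solute carrier genes beside 2.9% of all genes tested, and lower calls 3.85% beside 5.12%. The median change over the 182 was 0.04, beside -0.04 for all genes tested. With median-ratio scaling within each run 75.9% of the calls were higher and with quantile normalization 80.0%, against 66.7% here. The share was 61.1% with log2(TPM + 0.1), 66.3% with array weights and 64.9% without the third ATF1/CREB1-KO library. Knockout and control libraries did not overlap for 79 of the 182 (43.4%), beside 34.2% of all genes, 48 of them higher (26.4% beside 14.1%) and 31 lower (17.0% beside 20.1%).

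Under ATF1/CREB1-KO 13 solute carrier genes were called, 7 higher and 6 lower (7.14%), beside 4.58% of all genes tested and 4.84% of those with at least 2 TPM. Higher calls made up 3.85% of the solute carrier genes beside 1.47% of all genes tested, and lower calls 3.3% beside 3.11%. The balance turned with array weights (8 higher and 10 lower) and without the third knockout library (5 higher and 6 lower), and the median change over the 182 went from 0.05 to -0.0089 and -0.0056 in these settings, beside -0.02, -0.07 and -0.095 for all genes tested. Median-ratio scaling within the run gave 10 higher and 6 lower. Over all genes tested, array weights gave 1199 calls, leaving out the third knockout library 1017 and median-ratio scaling 750, beside 609 in the main fit. Knockout and control libraries did not overlap for 35 of the 182 (19.2%), beside 18.6% of all genes. All 13 calls rest on the spread shared over the 22 libraries: fitted on the 6 libraries of that run alone, none of 181 genes was called by limma (19 at an unadjusted p under 0.05) and 9 of all genes were. Without the third ATF1/CREB1-KO library 11 were called, 9 of the 13 among them, with Slc46a1, Slc31a1 and Slc35f6 among those lost. The calls of Slc46a1, Slc25a39 and Slc31a1 were lost without any single one of control clones 6, 7 and 8, that of Slc35f6 without clone 6 or 8 and that of Slc35e1 without clone 7.

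**Figure D2:**
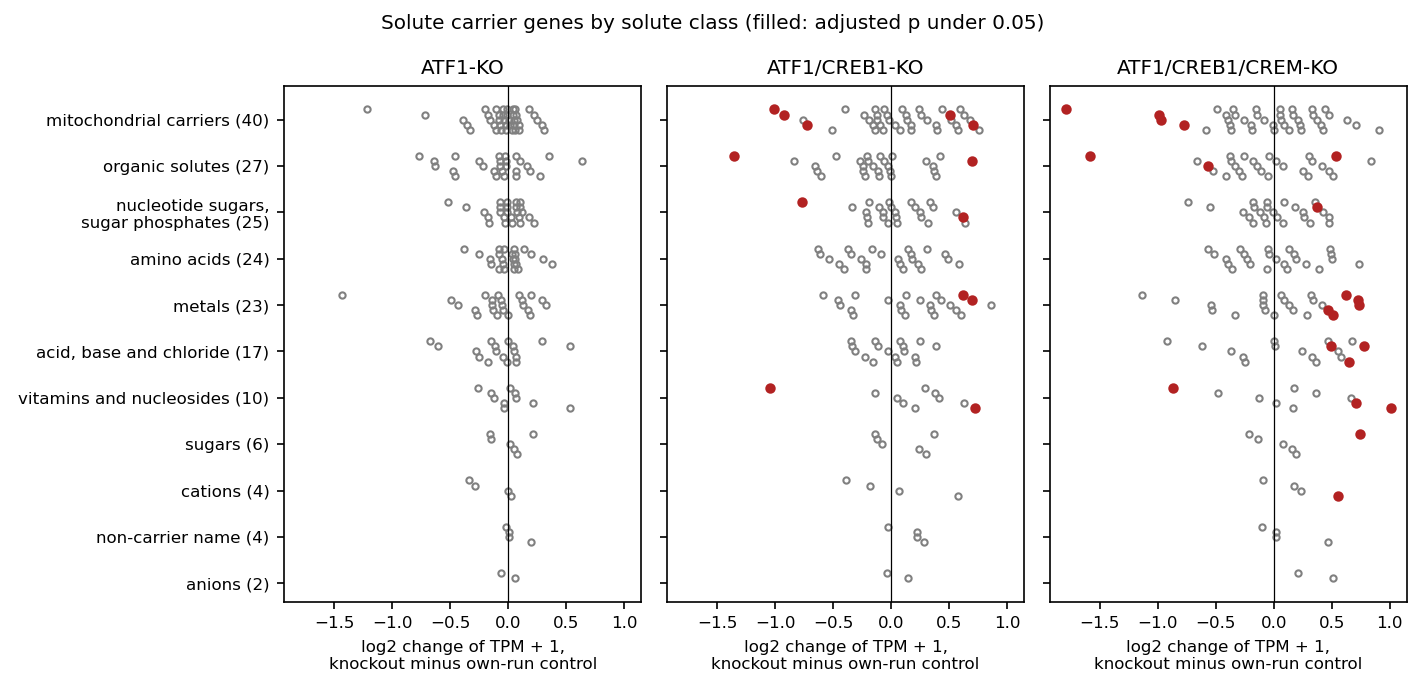
Log2 change of TPM + 1 (horizontal axis) of each of the 182 genes, knockout minus own-run control clones, by solute class with the number of genes in parentheses; filled points have an adjusted p under 0.05. No point is filled for ATF1-KO, 13 are for ATF1/CREB1-KO and 21 for ATF1/CREB1/CREM-KO, with 4 mitochondrial carriers on the lower side and 5 metal carriers on the higher side in the last panel.

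Mitochondrial carriers supplied 4 of the 7 lower calls under ATF1/CREB1/CREM-KO and no higher call among 40 genes, beside 5.12% lower and 2.9% higher calls over all genes, with a class median of 0.03. Slc25a16, a carrier linked to coenzyme A in the mitochondrial matrix, stood at 41.4, 30.8 and 35.9 TPM in control clones 9 to 11 and at 7.79, 9.02 and 12.6 TPM in the libraries labelled ATF1/CREB1/CREM-KO. Every knockout library lay far below every control clone, at 27.2% of the control mean (log2 change -1.79 ± 0.19 SE, limma, adjusted p = 4.32e-06). Under ATF1/CREB1-KO it stood at 7.46, 6.67 and 8.15 TPM in control clones and 2.23, 3.78 and 4.63 TPM in the knockout libraries, again without overlap (log2 change -0.92 ± 0.19 SE, adjusted p = 0.0094). In the first run Slc25a16 showed no such gap, at 28.1 to 36.9 TPM in control clones and 27.1 to 38.1 TPM under ATF1-KO. Its change under ATF1/CREB1/CREM-KO differed from that under ATF1-KO by -1.78 (adjusted p = 0.000162).

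Slc25a30, known as a kidney mitochondrial carrier, stood at 47.2, 35.9 and 46.9 TPM in control clones 9 to 11 and at 18.7, 21.2 and 24.1 TPM under ATF1/CREB1/CREM-KO. All 3 knockout libraries were below the controls, at 49.2% of their mean (log2 change -0.99 ± 0.16 SE, limma, adjusted p = 0.000607). In the second run it stood at 21.7, 18.9 and 19.0 against 12.3, 7.75 and 8.56 TPM (log2 change -1.005, adjusted p = 0.0015). The gene lies on chromosome 14, whose medians, each less the library's own median, were -0.03, -0.51 and -0.49 log2 in ATF1/CREB1/CREM-KO replicates 1 to 3. In ATF1/CREB1-KO replicates 1 to 3 they were 0.03, -0.44 and -0.22. The highest Slc25a30 value of the ATF1/CREB1-KO libraries was in the first, where that median was highest, and the lowest of the ATF1/CREB1/CREM-KO libraries was also in the first. The part of that shift in the result was not tested.

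Slc25a45, another carrier of the inner mitochondrial membrane, stood at 20.5, 25.1 and 23.5 TPM in control clones and 14.5, 13.6 and 11.1 TPM under ATF1/CREB1/CREM-KO (log2 change -0.78 ± 0.13 SE, limma, adjusted p = 0.000671). Under ATF1/CREB1-KO it stood at 8.91, 7.12 and 8.89 against 5.17, 4.14 and 4.52 TPM (log2 change -0.73, adjusted p = 0.00334). The groups did not overlap in either run. Slc25a47, a mitochondrial carrier known mainly from liver, stood at 4.95, 6.49 and 7.5 TPM in control clones and 4.75, 2.05 and 1.88 TPM under ATF1/CREB1/CREM-KO. The first knockout library nearly met the lowest control clone, and the call (log2 change -0.97 ± 0.27 SE, adjusted p = 0.0276) was kept in 7 of 14 alternative settings.

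Under ATF1/CREB1-KO mitochondrial carriers gave 3 lower and 2 higher calls among 40 genes, beside 3.11% and 1.47% of all genes. One of the higher calls was Slc25a39, which stood at 116, 107 and 117 TPM in control clones 6 to 8 and at 138, 163 and 282 TPM in the knockout libraries (log2 change 0.70 ± 0.17 SE, limma, adjusted p = 0.0186). It was highest in the third ATF1/CREB1-KO library, as were all 7 genes called higher in that comparison. The other abundant mitochondrial carriers did not pass the test under ATF1/CREB1/CREM-KO: Slc25a5 changed by 0.16 (adjusted p = 0.856), Slc25a3 by 0.33 (0.561), Slc25a4 by 0.13 (0.848) and Slc25a11 by -0.34 (0.52).

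Metal carriers gave 5 higher and no lower calls among 23 genes under ATF1/CREB1/CREM-KO, where 2.9% of all genes were called higher and 5.12% lower. All 5 belonged to the zinc carrier families: SLC30, which moves zinc out of the cytosol, and SLC39, which moves it in. These families have 17 expressed members, of which 11 were higher by value and 6 lower, with a median log2 change of 0.09. The groups did not overlap for 8 of the 17 on the higher side and 3 on the lower side, beside 14.1% and 20.1% of all genes.

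Slc39a7, which releases zinc from the endoplasmic reticulum, stood at 144, 153 and 143 TPM in control clones 9 to 11 and at 211, 210.0 and 205 TPM under ATF1/CREB1/CREM-KO. The knockout libraries were close together and all above the controls (log2 change 0.51 ± 0.11 SE, limma, adjusted p = 0.0067). In the second run it stood at 26.7, 27.5 and 28.8 against 44.4, 36.3 and 49.1 TPM, again without overlap (log2 change 0.62 ± 0.11 SE, adjusted p = 0.00361). The gene lies on chromosome 17, where the median over genes was 0.27, 0.21 and 0.21 log2 in the ATF1/CREB1/CREM-KO libraries. It was 0.30, 0.19 and 0.02 in the ATF1/CREB1-KO libraries. In each of these the library's own median is subtracted, which was not done for the change of Slc39a7. The part of that shift in the result was not tested. Its exons overlap Gm20427 on the same strand in GENCODE M21, so reads of the pair may have been split.

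Slc39a11, a zinc carrier of intracellular membranes, stood at 26.1, 28.4 and 23.5 TPM in control clones and 42.7, 44.9 and 43.2 TPM under ATF1/CREB1/CREM-KO (log2 change 0.73 ± 0.13 SE, limma, adjusted p = 0.00146). Slc30a5, which loads zinc into the secretory pathway, stood at 62.2, 54.5 and 59.5 against 93.5, 87.8 and 91.1 TPM (log2 change 0.62 ± 0.12 SE, adjusted p = 0.0023). Both genes separated the groups clearly and were called in each of the 14 alternative settings. Their changes also differed from those under ATF1-KO, by 0.72 for Slc30a5 (adjusted p = 0.0109) and 0.64 for Slc39a11 (adjusted p = 0.0406). The former difference was called in each of 23 alternative settings and the latter in 9 of 23.

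Slc30a4, an endosomal zinc carrier, stood at 24.6, 21.1 and 23.4 TPM in control clones and 53.0, 32.7 and 34.2 TPM under ATF1/CREB1/CREM-KO (log2 change 0.74 ± 0.17 SE, limma, adjusted p = 0.00769), the first knockout library being highest. Slc39a6, a plasma membrane zinc importer, stood at 30.4, 31.1 and 29.95 against 32.5, 49.2 and 47.9 TPM (log2 change 0.47 ± 0.13 SE, adjusted p = 0.0352). Its rise was carried by knockout replicates 2 and 3. Slc39a6 lies on chromosome 18, whose genes had medians of 0.47 and 0.47 log2 in these 2 libraries and 0.03 in the first, and the part of that shift in the result was not tested. Without the second or the third knockout library the gene was not called.

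Of the zinc carriers that did not pass the test, Slc39a14, which also carries iron and manganese, had means of 178 ± 14.9 (SD) in control clones and 124 ± 27.5 TPM under ATF1/CREB1/CREM-KO (adjusted p = 0.101). Slc39a4, the intestinal-type zinc importer, had 13.7 ± 8.69 and 6.78 ± 5.52 TPM (adjusted p = 0.494). These 2 and Slc39a8, at 1.86 ± 0.48 and 0.64 ± 0.59 TPM, had the lowest changes of the 17 zinc carriers and were singled out after their values were seen. Under ATF1/CREB1-KO 2 of 23 metal carriers were called higher, Slc39a7 and Slc31a1, the copper importer, and none lower. Over all genes 1.47% were called higher and 3.11% lower. Slc31a1 stood at 11.0, 9.24 and 8.87 TPM in control clones 6 to 8 and 14.6, 11.3 and 25.7 TPM in the knockout libraries (log2 change 0.69 ± 0.19 SE, limma, adjusted p = 0.0413). Knockout replicate 3 was highest, and without it the adjusted p was 0.0941.

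**Figure D3:**
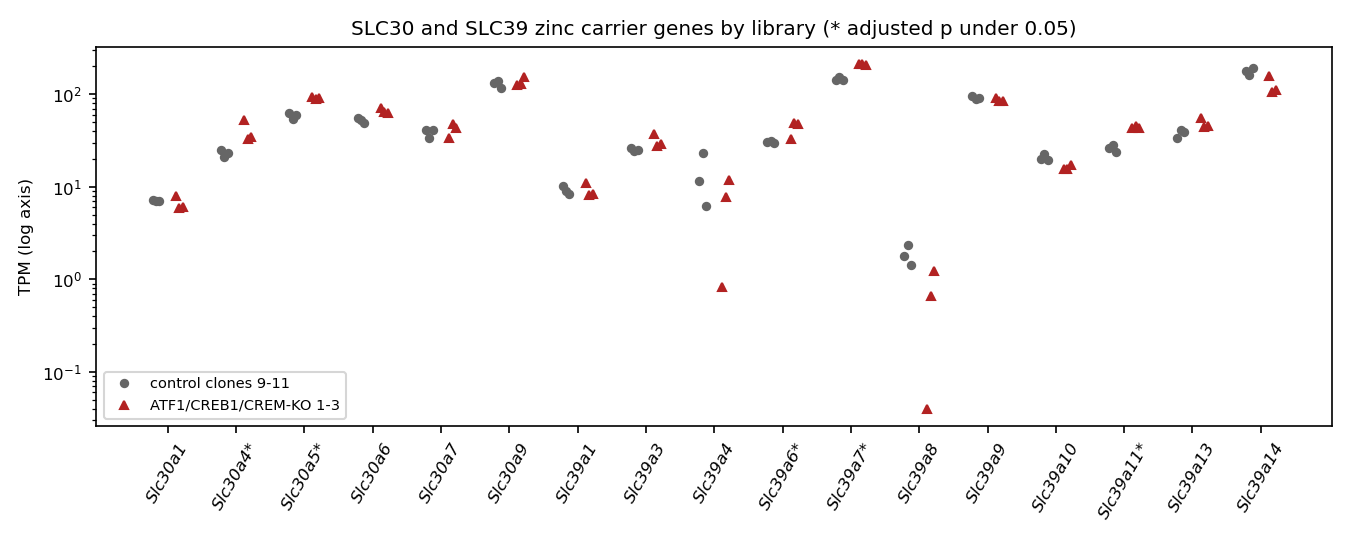
TPM (log axis) of the 17 SLC30 and SLC39 genes in control clones 9 to 11 (grey circles) and in 3 ATF1/CREB1/CREM-KO libraries (red triangles); an asterisk marks an adjusted p under 0.05. The red triangles lie above the circles for the 5 marked genes, with the first library of Slc39a6 nearest its controls at 32.5 TPM against 31.1 TPM.

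Carriers of acid, base and chloride gave 3 higher and no lower calls among 17 genes under ATF1/CREB1/CREM-KO, beside 2.9% and 5.12% of all genes. The class median was 0.33, and none of the 17 was called under ATF1/CREB1-KO. Slc12a4, the potassium-chloride cotransporter KCC1 that lets cells lose volume, stood at 31.6, 33.5 and 28.3 TPM in control clones 9 to 11 and at 52.4, 60.0 and 50.3 TPM in the knockout libraries. The rise was larger than the spread in either group (log2 change 0.78 ± 0.14 SE, limma, adjusted p = 0.0011). Under ATF1/CREB1-KO it stood at 5.89, 6.17 and 5.09 against 4.49, 6.41 and 4.52 TPM, groups that overlap. The difference between these changes was 0.92 ± 0.20 SE, the smallest adjusted p (0.0638) of all 182 genes in that contrast, and was not called.

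Slc12a9, a member of the cation-chloride cotransporter family, stood at 9.27, 12.0 and 11.1 TPM in control clones and 12.9, 17.3 and 16.8 TPM under ATF1/CREB1/CREM-KO (log2 change 0.50 ± 0.13 SE, limma, adjusted p = 0.0223). The groups did not overlap, but the first knockout library lay close to the highest control clone. The separate class of cation carriers, 4 genes, gave 1 higher call under ATF1/CREB1/CREM-KO, where 2.9% of all genes were called higher. It was Slc41a3, a magnesium carrier, at 3.53, 5.75 and 3.72 against 6.52, 6.85 and 6.77 TPM (log2 change 0.56 ± 0.17 SE, limma, adjusted p = 0.0439), a call kept in 5 of 14 alternative settings.

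Among 10 vitamin and nucleoside carriers 2 were called higher and 1 lower under ATF1/CREB1/CREM-KO, beside 2.9% and 5.12% of all genes. Slc19a2, the thiamine transporter of the plasma membrane, stood at 22.9, 24.1 and 21.2 TPM in control clones 9 to 11 and 11.4, 12.1 and 12.4 TPM in the knockout libraries. Both groups were tight and apart, the knockouts at 52.6% of the control mean (log2 change -0.87 ± 0.20 SE, limma, adjusted p = 0.00857). Under ATF1/CREB1-KO it stood at 5.27, 4.04 and 5.01 against 1.3, 1.71 and 2.49 TPM (log2 change -1.04 ± 0.20 SE, adjusted p = 0.00531). Under ATF1-KO it stood at 12.5 to 25.4 TPM in control clones and 17.6 to 24.7 TPM in the knockout libraries, which overlap, and the changes under both other labels differed from that one (by -1.09, adjusted p = 0.0195, and by -1.26, adjusted p = 0.0135).

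Slc46a1, the proton-coupled folate transporter, stood at 26.0, 26.4 and 27.5 TPM in control clones 9 to 11 and at 51.6, 39.3 and 42.6 TPM under ATF1/CREB1/CREM-KO (log2 change 0.71 ± 0.18 SE, limma, adjusted p = 0.0164). In the second run it stood at 7.38, 7.92 and 7.7 against 9.97, 11.8 and 20.0 TPM (log2 change 0.73 ± 0.18 SE, adjusted p = 0.0238). All knockout libraries exceeded their controls in both runs, and without the third ATF1/CREB1-KO library the adjusted p was 0.0535. Slc46a3, a lysosomal carrier of the same family, stood at 1.95, 4.01 and 4.97 against 6.85, 8.23 and 8.9 TPM under ATF1/CREB1/CREM-KO, the largest rise of the 21 calls on this scale (log2 change 1.01 ± 0.27 SE, adjusted p = 0.0249). It was kept in 8 of 14 alternative settings.

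Carriers of other organic solutes gave 2 lower and 1 higher call among 27 genes under ATF1/CREB1/CREM-KO, beside 5.12% and 2.9% of all genes. Slc22a29, a member of the organic anion carrier family, stood at 16.5, 11.6 and 14.4 TPM in control clones 9 to 11 and 6.0, 2.82 and 3.72 TPM in the knockout libraries, at 29.5% of the control mean (log2 change -1.58 ± 0.20 SE, limma, adjusted p = 4.45e-05). In the second run it stood at 7.04, 5.46 and 6.52 against 1.73, 1.54 and 2.37 TPM, at 29.7% (log2 change -1.35 ± 0.20 SE, adjusted p = 0.000753). The groups lay apart in both runs, and overlapped under ATF1-KO at 8.44 to 14.3 against 10.2 to 13.5 TPM. Slc22a29 has close relatives next to it in the mouse genome, so its reads may be shared with them and its value is uncertain.

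Slc10a3, a relative of the bile acid carriers with no settled substrate, stood at 26.4, 28.2 and 27.7 TPM in control clones and 22.5, 17.1 and 15.8 TPM under ATF1/CREB1/CREM-KO (log2 change -0.56 ± 0.13 SE, limma, adjusted p = 0.0106). Its exons overlap those of Ubl4a on the same strand. Slc16a1, the lactate and pyruvate carrier MCT1, stood at 122, 94.3 and 120.0 against 151, 165 and 169 TPM (log2 change 0.53 ± 0.15 SE, adjusted p = 0.035). All its knockout libraries exceeded all its controls, and under ATF1-KO its change was 0.35 (adjusted p = 0.791).

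Slc44a4, a choline-like carrier, was called under ATF1/CREB1-KO, where it stood at 10.4, 8.93 and 9.67 against 15.3, 16.5 and 17.4 TPM (log2 change 0.70 ± 0.13 SE, limma, adjusted p = 0.00377). Under ATF1/CREB1/CREM-KO it stood at 54.9, 58.5 and 54.7 against 51.6, 60.2 and 66.5 TPM, groups that overlap. The test of the difference between these changes gave -0.62 with an adjusted p of 0.275. It differed from the change under ATF1-KO by 0.77 (adjusted p = 0.0184). Slc44a4 also lies on chromosome 17, whose medians are given above.

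Sugar carriers, 6 genes, had 1 call, a higher one under ATF1/CREB1/CREM-KO, where 2.9% of all genes were called higher. Slc2a1, the glucose transporter GLUT1, stood at 60.1, 64.2 and 57.8 TPM in control clones 9 to 11 and 71.3, 136 and 111 TPM under ATF1/CREB1/CREM-KO (log2 change 0.75 ± 0.20 SE, limma, adjusted p = 0.0218). The first knockout library lay close to the controls and the others well above. Without the second or the third knockout library, or any of the control clones, it was no longer called. Of 25 genes classed by family number as nucleotide sugar and sugar phosphate carriers, 1 was called higher under ATF1/CREB1/CREM-KO, beside the same 2.9%. Slc35a4 stood at 139, 161 and 140 against 169, 209 and 191 TPM (log2 change 0.37 ± 0.11 SE, adjusted p = 0.0425), on chromosome 18 with the shift given above for Slc39a6, and its exons overlap Apbb3 on the other strand.

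Slc35e1 and Slc35f6, members of the same family without settled substrates, were called under ATF1/CREB1-KO. Slc35e1 stood at 8.29, 11.0 and 8.48 TPM in control clones and 3.86, 6.38 and 5.0 TPM in the knockout libraries (log2 change -0.77 ± 0.17 SE, limma, adjusted p = 0.0155). Slc35f6 stood at 4.38, 6.5 and 5.26 against 6.71, 9.52 and 10.4 TPM (log2 change 0.62 ± 0.15 SE, adjusted p = 0.0213). The groups were apart in both genes, though narrowly for Slc35f6. None of the 24 amino acid carriers was called by limma under any label. At an unadjusted p under 0.05 stood 3 under ATF1-KO, 5 under ATF1/CREB1-KO and 8 under ATF1/CREB1/CREM-KO, beside 5.13%, 20.6% and 21.7% of all genes. Slc3a2 changed by 0.39 (adjusted p = 0.0957) and Slc38a2 by -0.26 (adjusted p = 0.189) under ATF1/CREB1/CREM-KO, with class medians of -0.01 under that label and under ATF1/CREB1-KO, where 1 of the 24 separated the groups on the higher side and 5 on the lower, beside 6.55% and 12.1% of all genes.

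Both multiple knockout labels called 7 genes in the same direction (3.85% of the 182, beside 2.17% of all genes) and none in opposite directions (beside 0.00752%). Slc25a16, Slc22a29, Slc25a30, Slc19a2 and Slc25a45 were lower and Slc39a7 and Slc46a1 higher under both. These 7 were 53.8% of the calls under ATF1/CREB1-KO and 33.3% of those under ATF1/CREB1/CREM-KO, beside 47.5% and 27.1% for all genes called. The 2 comparisons have no library in common, though they share the estimate of the spread. Their libraries also shared shifts of whole chromosomes against own-run control clones, each less the library's own median. ATF1/CREB1-KO replicate 2 and ATF1/CREB1/CREM-KO replicates 2 and 3 had medians of -0.44, -0.51 and -0.49 log2 on chromosome 14. They had 0.43, 0.47 and 0.47 on chromosome 18. ATF1/CREB1/CREM-KO replicate 1 had -0.03 and 0.03 on chromosomes 14 and 18. On chromosome 16 ATF1/CREB1/CREM-KO replicates 1 to 3 had -0.73, -0.003 and 0.02. On chromosome 17 they were closer, at 0.27, 0.21 and 0.21. Whether ATF1/CREB1/CREM-KO replicates 2 and 3 are independent of each other was not tested. The first replicate of each label had -0.24 and -0.26 on chromosome 11. On chromosome 16 these first replicates had -0.30 and -0.73, and on chromosome 17 0.30 and 0.27. ATF1-KO replicate 1 had -0.34 and 0.36 on chromosomes 16 and 17. Control clones shifted too, such as clones 1 to 3 on chromosome 14 (-0.28, 0.20 and -0.27). The part of these shifts in the genes called under both labels was not tested. Over the 182 genes the changes had a Spearman correlation of 0.52 (0.45 over all genes) and the same sign in 132 (72.5%, beside 64.8%), given as a description over genes measured in the same libraries. The test of the difference between the 2 changes called none of the 182 genes (16 at an unadjusted p under 0.05; 25 of all genes, 0.188%).

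**Figure D4:**
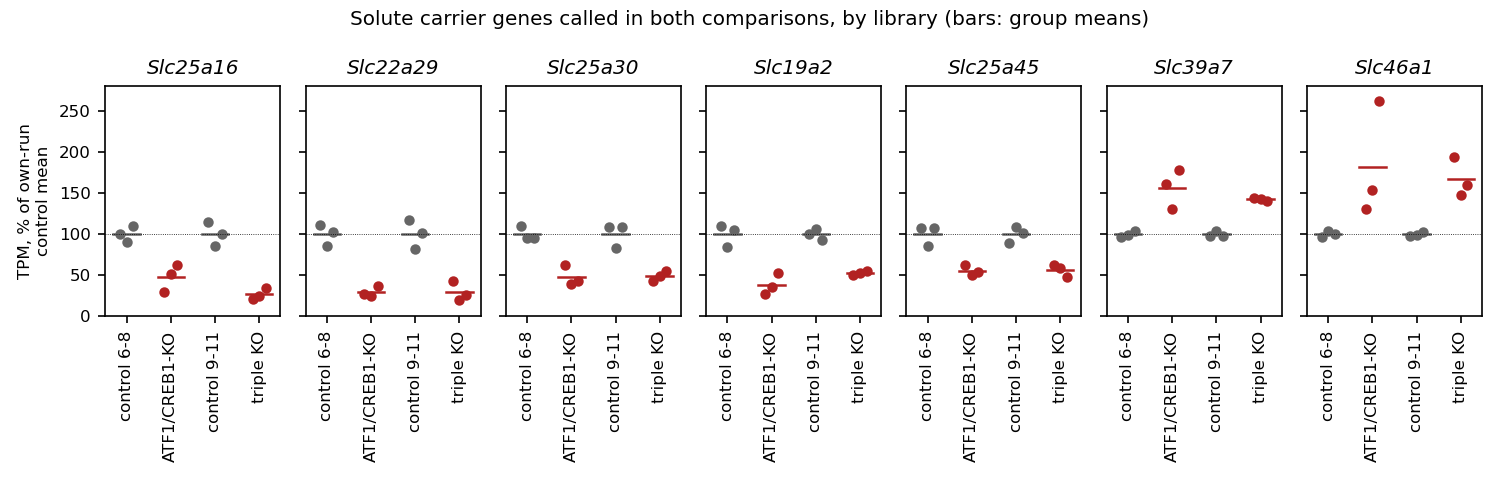
TPM as a percentage of the own-run control mean for the 7 genes called under both labels; points are libraries, short bars group means, grey control clones and red knockout libraries (triple KO stands for ATF1/CREB1/CREM-KO). Red points lie below grey ones for the 5 genes on the left, with means from 27.2 to 56.7%, and above them for Slc39a7 and Slc46a1, with means from 142 to 182%.

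**Figure D5:**
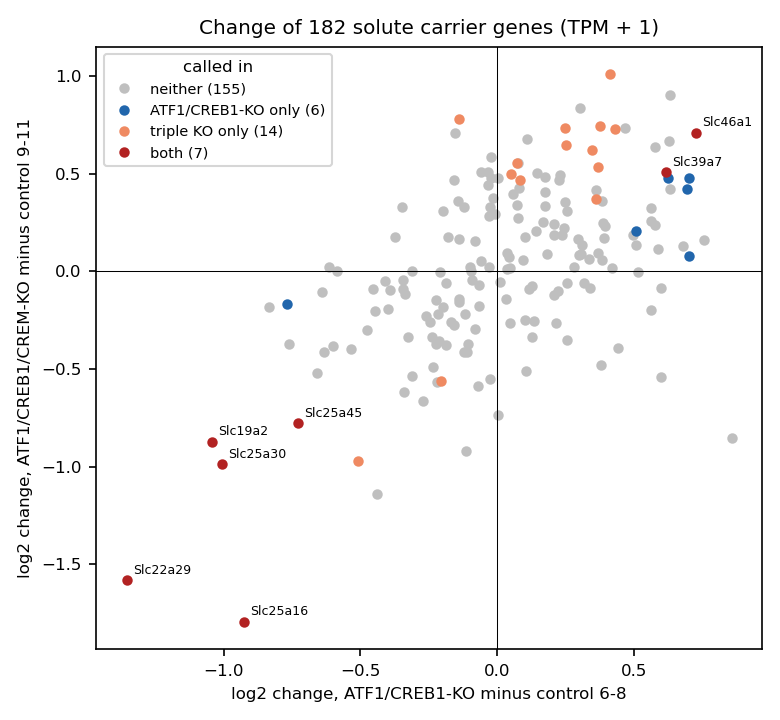
Log2 change of TPM + 1 of each of the 182 genes under ATF1/CREB1-KO (horizontal axis) and ATF1/CREB1/CREM-KO (vertical axis, labelled triple KO in the key), coloured by where it was called. The 7 genes called under both labels sit in the lower left (5) and upper right (2), Slc25a16 lowest at -1.79 on the vertical axis.

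Against ATF1-KO, 10 changes differed under ATF1/CREB1/CREM-KO (5.49%, beside 3.57% of all genes) and 5 under ATF1/CREB1-KO (2.75%, beside 1.46%). The 5 shared lower genes were among the 10, with Slc46a1, Slc30a5, Slc12a9, Slc39a11 and Slc25a48. Of these, the differences of Slc12a9 and Slc46a1 were called in 10 and 5 of 23 alternative settings. Under ATF1/CREB1-KO they were Slc22a29, Slc19a2, Slc25a30, Slc25a45 and Slc44a4. The difference for Slc22a29 was -1.56 (limma, adjusted p = 0.00127) and -1.33 (adjusted p = 0.0109).

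The calls under ATF1/CREB1/CREM-KO were steadiest for 9 genes, called in all 14 alternative settings: Slc25a16, Slc22a29, Slc25a30, Slc19a2, Slc25a45, Slc39a7, Slc39a11, Slc30a5 and Slc12a4. Fitted on the 6 libraries of its run alone, 21 genes were called, 12 of them among the 21 above. Without control clone 9 the count was 13, without the second knockout library 11 and without the third 12. Without the third ATF1/CREB1-KO library, which enters this comparison only through the shared spread, it was 37 (24 higher and 13 lower), all 21 among them. Over all genes tested the own-run fit gave 1216 calls, and the other settings 664, 695, 716 and 1951 in the order given, beside 1066. The calls of Slc25a47, Slc10a3, Slc35a4, Slc39a6, Slc12a9, Slc16a1, Slc41a3, Slc2a1 and Slc46a3 were lost without the second knockout library and also without the third. Slc41a3 was also lost without the first, and Slc46a1 without the first or control clone 9 or 10. Single control clones also decided calls, clone 9 those of Slc35a4, Slc39a6, Slc12a9, Slc16a1, Slc41a3, Slc2a1 and Slc46a3, clone 10 those of Slc25a47, Slc39a6, Slc16a1 and Slc2a1, and clone 11 those of Slc25a47, Slc35a4, Slc39a6, Slc12a9, Slc16a1, Slc41a3 and Slc2a1.

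Genes that serve carriers were read from 2 lists, partners (subunits, chaperones and scaffolds) and regulators (kinases, cofactors and transcription factors). Of 11 partners tested 1 was called under ATF1/CREB1/CREM-KO, beside 8.02% of all genes, and 0 under the other labels. It was Pdzk1, a scaffold for apical carriers, at 0.5, 0.4 and 0.05 TPM in control clones and 1.21, 6.89 and 6.89 TPM in the knockout libraries (log2 change 1.99 ± 0.40 SE, limma, adjusted p = 0.00324). Pdzk1 was called in 10 of 11 alternative settings, and not with the libraries of that run alone (limma, adjusted p = 0.0634). Control clone 1 of the first run reached 1.06 TPM. Bsg, the chaperone of the lactate carriers, had a log2 change of 0.01 under that label. Of 21 regulators tested 2 were called higher and 1 lower under ATF1/CREB1/CREM-KO, beside 2.9% and 5.12% of all genes. Under ATF1/CREB1-KO 1 was called higher and 0 lower, beside 1.47% and 3.11%.

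Sgk1, a kinase that keeps sodium transporters at the membrane, stood at 95.1, 156 and 71.5 TPM in control clones 9 to 11 and 760.0, 1585 and 1524 TPM under ATF1/CREB1/CREM-KO (log2 change 3.57 ± 0.83 SE, limma, adjusted p = 0.00957). In the second run it stood at 18.9, 28.96 and 11.9 against 119, 148 and 211 TPM (log2 change 2.98, adjusted p = 0.0433), a call kept in 6 of 14 alternative settings and not with the libraries of that run alone (adjusted p = 0.0568). The groups did not overlap in either run, but control clones 1 and 3 of the first run reached 828.95 and 833.59 TPM without any knockout. Stk39, the kinase SPAK that acts on cation-chloride cotransporters, stood at 0.49, 0.74 and 0.34 against 3.72, 8.8 and 10.8 TPM (log2 change 2.43 ± 0.43 SE, adjusted p = 0.00115). Chp1, a cofactor of sodium/proton exchangers, fell from 133, 101 and 136 TPM to 53.8, 68.1 and 71.4 TPM (log2 change -0.92 ± 0.17 SE, adjusted p = 0.00142).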

How the data were processed

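RNA sequencing of mpkCCD cells was deposited for 22 of the 40 samples of the labels in 1 table of TPM values. The other 18 samples, of a rescue experiment, were not analysed here, and no column stayed without a sample (0). STAR and RSEM are named in the submitters' processing notes, without versions, and the TPM values were deposited by the authors as made with them. The genome build, annotation and strand setting are not given in the sources used here. Per the labels' protocols, cDNA was amplified by PCR and tagmented, a preparation that does not mark strand, so a gene and its antisense partner cannot be told apart. TPM keeps no depth, so read numbers are unknown and counting intervals are left out. In GENCODE M21, exons of 53 of the 182 genes overlap another gene.

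Values were read as log2(TPM + 1) for the 13295 genes that averaged 1 TPM or more over the 22 libraries, which include all 182 solute carrier genes. The fold changes on this scale understate changes of low genes. One model of 6 run-by-genotype means, with 16 residual degrees of freedom and a variance trend in eBayes, was fitted in R 4.3.3 by limma 3.58.1, and each knockout label was contrasted with its own-run control clones. Differences between changes were contrasts of the same fit. Adjusted p-values are Benjamini-Hochberg over all genes tested, called under 0.05, and errors of changes are SE. The fit was tested on simulated data in which 200 genes moved by 2 log2 units, of which 200 were recovered for ATF1-KO, 194 for ATF1/CREB1-KO and 196 for ATF1/CREB1/CREM-KO, among 13079, 13096 and 13086 genes. False calls were 7.83%, 2.51% and 2.97%. Recovery of changes smaller than 2 log2 units was not tested. The largest change called among the 182 genes was -1.79, for Slc25a16 under ATF1/CREB1/CREM-KO.

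The members, classes and lists were chosen with earlier results of these data known. Named genes were up to 12 called genes per direction and comparison whose groups did not overlap, the 8 highest, those called under 2 labels or in a difference, called partners and regulators, markers and genes at the threshold; 2 genes under this rule are counted in the totals but not reported here. Alternatives were other pseudocounts, filters and scalings, array weights, no variance trend, own-run fits, each library left out, and a replicate block in the first run. Replicate numbers are shared by control clones 1 to 5 and ATF1-KO, but no label ties them.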

Additional observations from a re-analysis of the deposited data

Results flagged for a closer look

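In the groups of 5 libraries (control clones 1 to 5 and ATF1-KO), 35 named solute carrier genes gave 70 checks. Each looked for a library that stands apart from the other 4 (Dixon's test). Such a library was found in 2 of the 70 checks, fewer than the about 1 in 20 that chance gives. Slc2a1, the glucose transporter GLUT1, stood at 118.65 TPM in the first ATF1-KO library, and the other 4 stood at 81.4 to 89.8 TPM. Slc39a7, the zinc carrier of the endoplasmic reticulum, stood at 230.9 TPM in the same library, against 180 to 192 TPM in the other 4. In that library the genes of chromosome 17, which holds Slc39a7, had a median log2 change of 0.36 against control clones 1 to 5, less the library's own median. The part of that shift in the Slc39a7 value was not tested. Neither gene was called under ATF1-KO.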

How the results depend on the processing

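No called gene named above changed direction in the settings tried for it, whereas the balance of calls and the median change under ATF1/CREB1-KO turned in 2 settings given above. Under ATF1-KO the main count was 0, with 1 gene called with array weights (2 of all genes tested). It was 0 to 1 with single libraries left out: 1 without control clone 4 (3 of all genes) or ATF1/CREB1-KO replicate 3 (1 of all genes). Under ATF1/CREB1-KO the main count was 13 (609 of all genes), and it was 0 with own-run libraries only (9 of all genes). With single libraries left out it was 8 to 25. It was 8 without control clone 6 or 7 (276 and 234 of all genes). Without knockout replicate 1 or 2 it was 24 and 25 (1324 and 1365 of all genes). Under ATF1/CREB1/CREM-KO the main count was 21, beside 1066 of all genes. With array weights (0.256 for knockout replicate 1, 2.17 for replicate 2) it was 86, beside 4606 of all genes. With single libraries left out it was 11 to 37. It was 11 to 23 for those of its own run (664 to 1107 of all genes). Without ATF1/CREB1-KO replicate 3 it was 37, beside 1951 of all genes. For the difference between the 2 multiple knockouts, the main count was 0, array weights gave 2 and leaving out single libraries 0 to 1 (1 without control clone 3 or ATF1/CREB1-KO replicate 2 or 3). Against ATF1-KO, the ATF1/CREB1/CREM-KO count of 10 became 52 with array weights and 6 to 16 with single libraries left out (6 without control clone 9, 16 without knockout replicate 1). The ATF1/CREB1-KO count of 5 became 9 with quantile normalization, 13 with array weights and 2 to 17 with single libraries left out (2 without control clone 6, 13, 17 and 9 without knockout replicates 1, 2 and 3). For the differences between labels, counts over all genes in these settings are not given here. Leaving out libraries outside a comparison was chosen after seeing the data. The cause of these moves was not tested.

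With the replicate block in the first run 0 genes were called under ATF1-KO, as without it. Same-numbered libraries correlated at -0.10 to 0.09 in their deviations from the group means, and 2 of 5 matched their own number best, so the numbers were not read as a pairing. No block was fitted in the other runs, whose groups share no replicate number. Depth is unknown, and what it limits was not tested.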

Other observations

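Of the 194 solute carrier genes under the 2 TPM threshold, 25 were listed at 0 in all libraries and 10 averaged 1 TPM or more over the 22 libraries and so were tested. Slc4a5, a sodium-bicarbonate cotransporter, was called lower under ATF1/CREB1/CREM-KO, with means of 3.15 and 0.33 TPM in control clones and knockout libraries (log2 change -1.57, limma, adjusted p = 0.0159). Slc8a3, a sodium/calcium exchanger, was called higher, at 1.26 and 2.93 TPM (log2 change 0.80, adjusted p = 0.0281). Slc12a3, the thiazide-sensitive sodium-chloride cotransporter and a marker of the distal convoluted tubule, stood at 0.04, 0.07 and 0.14 TPM in control clones 9 to 11 and 4.4, 1.24 and 1.68 TPM in the libraries labelled ATF1/CREB1/CREM-KO. In the second run it stood at 0.06, 0.23 and 0.15 against 0.59, 0.79 and 0.24 TPM, and its mean was too low for the test.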
